A study of Xenopus tropicalis with 26 samples.

Results

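Chaperones and heat shock genes were followed through blastula and gastrula stages of Xenopus tropicalis in normal medium and in medium with high external K+. Members were taken by a rule on gene symbols, which used no measured value. The symbols covered the HSP70, HSP110, HSP90, HSP60/HSP10 and small heat shock protein families, the J proteins, the chaperonin TRiC/CCT, prefoldin, the BAG cochaperones, 2 genes named as HSP70 or HSPB binding proteins (hspbp1 and hspbap1) and the heat shock factors. This gave 103 gene rows of 34192 in the table, with 100 distinct symbols. A few names are broader than the function they imply. The hsf2bp product binds heat shock factor 2 and is known in mammals for its part in meiosis, and the hspb11 product is an intraflagellar transport protein rather than a typical small heat shock protein.

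The control group consisted of whole embryos kept in 1/9X MR, a dilute frog saline. The high K+ group consisted of whole embryos kept in 10 mM KCl, which the study used to depolarize cells. No membrane potential is given for these samples. Each condition was 1 time course of 13 samples, harvested every 30 min from stage 8 to stage 13 (0 to 6 h), with 10 embryos pooled per sample. Neighbouring time points therefore stood in for replicates, and p-values and likelihood ratios measured the spread along 1 course per condition rather than between clutches. Values are abundances corrected with ERCC spike-in RNAs, synthetic transcripts added in equal amount to each sample, and the read depth behind them is unknown. The study reported a GC bias that depended on batch and differed between control and high K+ samples. It fitted the correction to each condition separately. What remains of that bias therefore cannot be told apart from the effect of high K+. Whole embryos of these stages were recognizable from several marker genes. In control, the maternal gene mos averaged 124 at 0-1 h and 3.37 at 5-6 h. The neural gene sox2 averaged 19.9 and 652 and the endodermal gene sox17a 6.40 and 264. In contrast, the ectodermal and neural gene sox3 fell, from 728 to 319 in control and from 901 to 388 in high K+. The mesodermal gene eomes rose from 11.1 to 33.3 in control. The planned markers tbxt and ccnb5 matched no symbol. The level of the spike-in RNAs themselves varied from -0.58 to 0.65 (log2) between samples and exceeded control in the high K+ sample at 10 of the 13 times. Calls were therefore also made after bringing the control and high K+ samples of each time point to a median ratio of 1 and after scaling to the spike-in level.

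Molecular chaperones bind unfolded chains and keep them from aggregating. HSP70 does so in cycles of ATP hydrolysis, which J proteins (DNAJ) start by stimulating the ATPase and which BAG proteins and other exchange factors end by releasing ADP. HSP90 acts later, on signalling proteins such as kinases and steroid receptors. Prefoldin hands nascent actin and tubulin to TRiC, a double ring of 8 different subunits that folds them. Heat shock factors are the transcription factors that switch on the inducible members under stress. The frog egg is stocked with maternal chaperone mRNA, and early Xenopus laevis embryos are known not to induce HSP70 by heat before the mid-blastula transition.

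A gene was tested if it lay above 0.4 for 6 time points in a row in at least 1 condition, as 83 members did, and the other 20 members did not enter the test. A Gaussian process, a smooth curve with fitted noise, was fitted to each gene either once to both courses or separately to each, and the gene was called where the log-likelihood ratio of separate against shared curves exceeded 0. Of the 83 members tested, 27 were activated in high K+, 4 were repressed and 52 were not called. The background was 38.9% called among 15019 genes tested, with 29.6% activated and 9.26% repressed. With 37.3% of members called, the group as a whole stood near that background. A limma fit with the time point as replicate block called 25 members higher and 10 lower, beside 27.0% and 12.5% of all genes. Without the block it called 6 and 0, beside 4.07% and 0.886%. The share of activated genes among the calls depended on scaling: it was 87.1% for members without scaling, 57.1% (20 activated, 15 repressed) with a median ratio of 1 and 52.2% (12 activated, 11 repressed) with spike-in scaling. The same share over all genes went from 76.2% to 52.2% and 42.9%. Of all genes tested, 18.7% were activated and 17.1% repressed with a median ratio of 1, and 12.4% and 16.5% with spike-in scaling.

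The median difference of the 83 members, high K+ minus control as a mean over 13 time points of log2(abundance + 1), was 0.09, with a range from -0.56 to 0.78, beside 0.08 for all genes tested. With spike-in scaling the medians became -0.02 and -0.03, so the whole table shifted by more than 0.1. At single time points the members moved with the table. At 1.5 h, 79 of 83 members were higher in high K+ and their median difference was 0.52, beside 0.48 for all genes. At 4.5 h, 61 members were lower and the medians were -0.42 and -0.38.

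**Figure D1:**
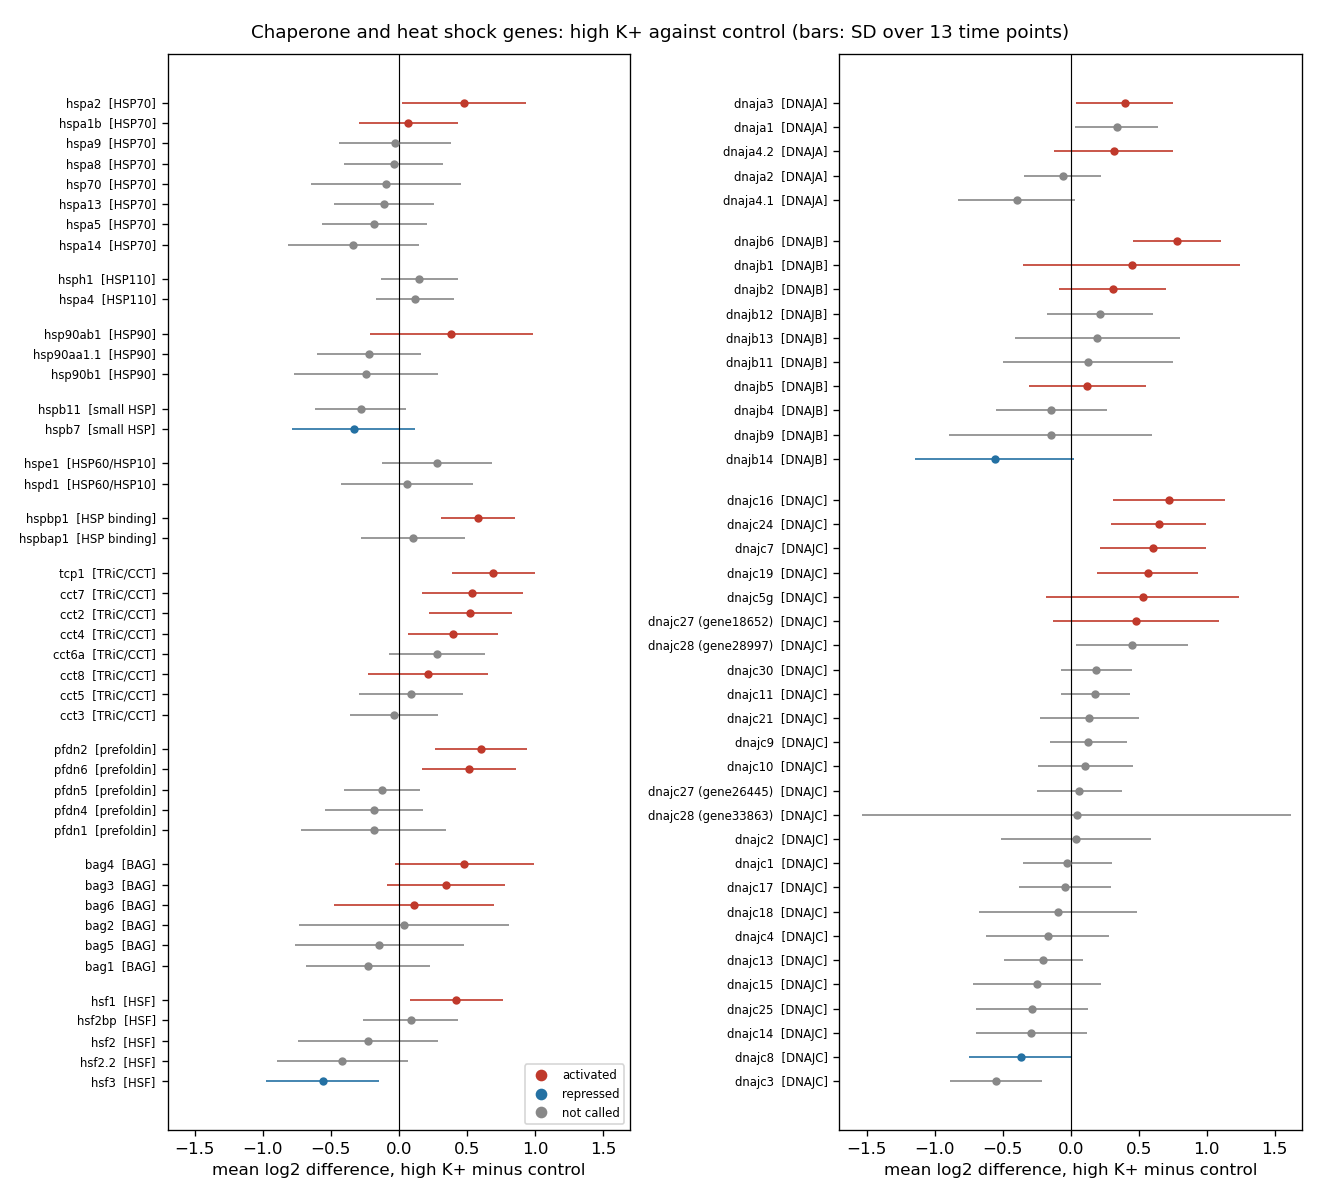
Mean log2 difference between high K+ and control for the 83 members tested, by family, as the mean over 13 time points of log2(abundance + 1) with bars of 1 SD over time points. Points are coloured by their call without scaling; activated and uncalled members lay side by side in most families, and means ran from -0.56 (hsf3) to 0.78 (dnajb6).

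No member was called activated under one scaling and repressed under another (0 opposite calls). In the same direction under all 3 scalings, 16 members were called: 12 activated (bag3, bag4, tcp1, dnajb1, dnajb6, dnajc16, dnajc19, dnajc24, 1 of 3 rows named dnajc27, hspbp1, pfdn2 and pfdn6) and 4 repressed (dnajb14, dnajc8, hsf3 and hspb7). The 12 were spread over 6 families, and 8 activated members exceeded control at all 13 time points, namely cct2, cct7, tcp1, dnajb6, dnajc19, dnajc24, hspbp1 and pfdn2. Of the 27 activated members, 15 differed most at 1 h and 5 at 1.5 h. Control at 1 h was also the sample with the lowest spike-in level (-0.58), and its part in these differences was not tested. The counts in this paragraph were not made over all genes, so they stand without a background.

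**Figure D2:**
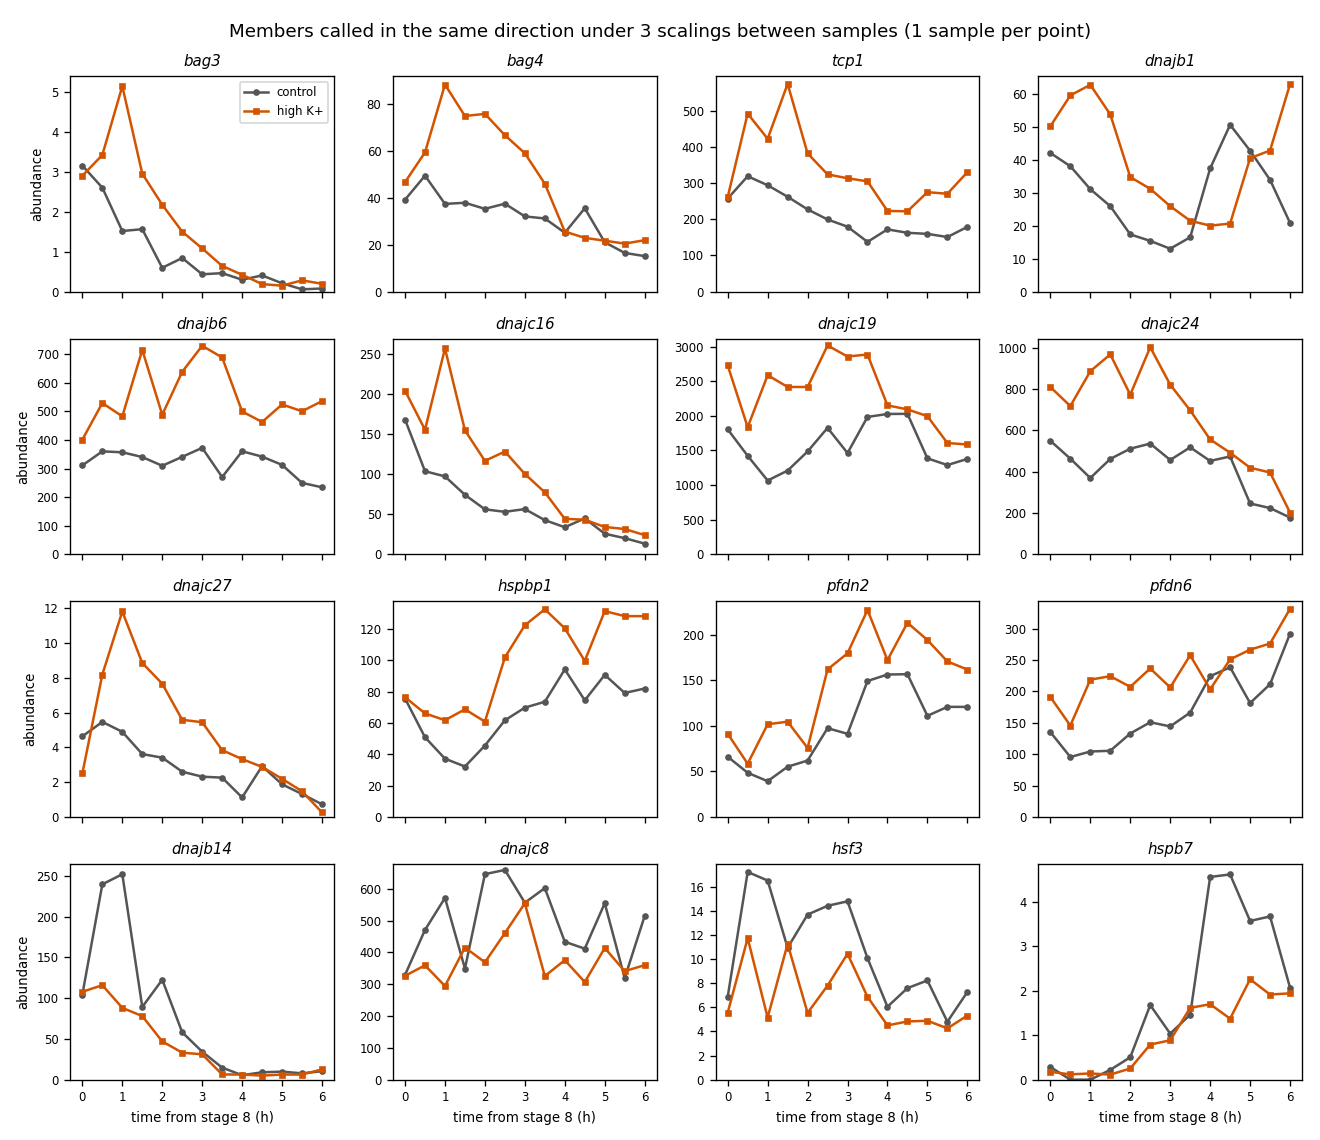
Abundance of the 16 members called in the same direction under 3 scalings against time from stage 8 in h, with 1 sample per point, grey circles for control and orange squares for high K+. The first 12 panels are activated members and the last 4 are repressed; dnajb6 is the panel in which no high K+ point (lowest 401) falls within the control range (highest 372).

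J proteins included the largest positive mean differences, those of dnajb6 and dnajc16. They are defined by a J domain, and their partners and sites differ widely. Among 5 DNAJA genes 2 were activated (dnaja3 and dnaja4.2), among 10 DNAJB genes 4 were activated and 1 was repressed, and among 25 DNAJC genes tested 6 were activated and 1 was repressed. Called shares were 40.0% (DNAJA), 50.0% (DNAJB) and 28.0% (DNAJC), beside 38.9% of all genes. With a median ratio of 1, activated and repressed genes numbered 1 and 1 (DNAJA), 2 and 2 (DNAJB) and 5 and 4 (DNAJC). Called shares were then 40.0%, 40.0% and 36.0%, beside 35.9% of all genes. With spike-in scaling 0 DNAJA genes were called, and the counts were 2 and 1 (DNAJB) and 4 and 3 (DNAJC). These were 30.0% and 28.0%, beside 28.8% of all genes.

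dnajb6 (gene18019), which in human cells holds aggregation-prone proteins soluble, was the member with the largest ratio. Its abundance was 234 at the lowest, 340 at the median and 372 at the highest in control, and 401, 524 and 730 in high K+. Its lowest high K+ value lay above its highest control value, which held for 1 of 83 members and for 0.113% of all genes tested (17 genes). The mean log2 difference was 0.78 ± 0.32 (SD over 13 time points), with a log-likelihood ratio of 15.7, and the call was kept under both scalings.

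dnajb1 (gene1456) is the classical heat-inducible HSP40 and partner of cytosolic HSP70. It ranged from 13.0 (median 31.0) to 50.6 in control and from 20.0 (median 40.4) to 62.9 in high K+. The ranges overlapped widely, and the difference lay in the shape of the courses. Control was lowest, 13.0, at 3 h and peaked at 50.6 at 4.5 h, whereas high K+ was lowest at 4 h (20.0) and reached its highest value at 6 h. The difference accordingly changed sign, from 0.94 at 3 h to -1.26 at 4.5 h and 1.55 at 6 h, so its mean of 0.45 ± 0.80 (SD over 13 time points) hardly described it, although its ratio was 10.7.

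dnajc24 (gene7445) encodes a J protein of diphthamide synthesis, the modification of elongation factor 2. It measured 178, 462 and 549 in control (lowest, median and highest) and 202, 717 and 1002 in high K+. High K+ exceeded control at each of 13 time points although the ranges overlapped, with a difference of 0.65 ± 0.35 and a ratio of 10.6. dnajc19, a J protein of the mitochondrial import motor, was among the most abundant members with 1065, 1461 and 2028 in control and 1585, 2415 and 3016 in high K+. dnajc27 (gene18652), which carries a Rab-like GTPase domain, was expressed at a low level of 0.727 to 5.47 in control (median 2.60) and 0.258 to 11.8 in high K+ (median 3.84). Its ratio was 9.21, while of 2 other rows with that symbol 1 was not called and 1 was too low to test.

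Repressed J proteins were dnajb14 and dnajc8. dnajb14 (gene4778), an ER membrane J protein in human cells, measured 5.49 at the lowest, 34.4 at the median and 252 at the highest in control, and 4.98, 31.1 and 116 in high K+. The ranges overlapped because the gene fell steeply in both courses, and the gap opened early: control was at 252 and high K+ at 88.2 at 1 h. Its difference was -0.56 ± 0.59 with a ratio of 4.41, and the ratio was -3.64 after a log2 transform. dnajc8, a spliceosome-associated protein, measured 319, 515 and 659 in control and 294, 360 and 555 in high K+. Its ratio of 0.05 sat at the threshold and fell below 0 in 9 of 13 fits that left out 1 time point.

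The most abundant DNAJA gene was dnaja2 (gene4243), a cytosolic HSP70 partner. It measured 478, 823 and 1015 in control and 483, 827 and 1092 in high K+, nearly the same range, with a ratio of -5.75. By row, the most abundant DNAJC member was gene33863, labelled dnajc28, listed at 40281 to 294667 in control and 40399 to 293557 in high K+. Its control mean of 159048 stood far above the 1596 of hspa8, the next most abundant member. Its difference ran from -2.80 at 1.5 h to 2.87 at 4.5 h, so its level is doubtful. A separate row labelled dnajc28 (gene28997) averaged 3.82 and 5.80, so the symbol does not point to a single level, and neither row was called.

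In the HSP70 family few members were called. The constitutive HSP70 hspa8 (gene286) was the most abundant of them, with 426, 1707 and 2678 in control and 405, 1741 and 3599 in high K+ (lowest, median and highest). The ranges overlapped almost fully, the difference was -0.04 ± 0.36 and the ratio was -4.86. The called members of the family's 8 tested genes were hspa2 and hspa1b, both activated (25.0%, beside 38.9% of all genes). With spike-in scaling 0 were activated and 2 repressed (hsp70 and hspa9). hspa2 (gene25900), best known from mammalian testis, ran from 3.45 (median 11.8) to 18.3 in control and from 2.71 (median 15.6) to 29.5 in high K+. High K+ was highest at 2 h and control at 4.5 h, where high K+ was lower (12.1). The ratio was 9.02, but -0.56 with spike-in scaling. hsph1, the more abundant of 2 HSP110 exchange factors, had a ratio of -4.85, and neither HSP110 gene was called.

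Of 6 BAG genes, 3 were activated (bag3, bag4 and bag6) and 0 repressed, with a median difference of 0.07 over the 6. That was 50.0% called, beside 38.9% of all genes. With spike-in scaling bag6 was not called (ratio -2.36), and with a median ratio of 1 bag1 was called repressed (ratio 0.66). bag4 (gene3363), also known as a silencer of death receptors, measured 15.1, 35.3 and 49.5 in control and 20.5, 46.7 and 88.4 in high K+. The courses were apart early, by 1.22 (log2) at 1 h, and met at 4 h, where the difference was 0.03. Its mean difference was 0.48 ± 0.51 with a ratio of 11.6. hspbp1, a nucleotide exchange factor of HSP70, exceeded its control level at each of 13 time points, with 32.2, 73.5 and 94.2 in control and 60.9, 102 and 133 in high K+. Its ratio was 6.99 and its difference 0.58 ± 0.27.

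Among 3 HSP90 genes tested, hsp90ab1 was called (33.3%, beside 38.9% of all genes). hsp90ab1 (gene8176), the constitutive cytosolic form, measured 430, 700 and 1360 in control and 653, 919 and 1306 in high K+. The ranges overlapped, and the highest control value, at 4.5 h, exceeded every high K+ value. The ratio was 1.33 and fell to -1.19 with a median ratio of 1, -0.94 with spike-in scaling, -1.10 without 2 h and -0.18 without 2.5 h. The HSP60 and HSP10 genes hspd1 and hspe1, which form the mitochondrial chaperonin, are next to each other in the RefSeq annotation (assembly UCB_Xtro_10.0). Neither was called, with ratios of -5.58 and -2.42, and hspe1 averaged 775 in control beside 168 for hspd1.

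Of the TRiC subunits 5 of 8 were activated (tcp1, cct2, cct4, cct7 and cct8) and 0 repressed, or 62.5%, beside 38.9% of all genes. The same number was called with a median ratio of 1, but with spike-in scaling 1 remained, tcp1. Their median difference was 0.34, and 0.23 and 0.21 under the 2 scalings, beside all-gene medians of 0.08, -0.01 and -0.03. Summed over the 8 subunits, abundance ran from 1030 to 1926 in control (median 1335) and from 1212 to 2831 in high K+ (median 1664). The sum exceeded control at 10 of 13 time points, and the ranges overlapped.

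The subunits did not move as a unit. tcp1 (gene15896) measured 137, 179 and 319 in control and 222, 313 and 575 in high K+ (lowest, median and highest). The courses began together at 0 h, with a log2 difference of 0.02, and separated from 0.5 h onwards. Its mean difference was 0.69 ± 0.31 with a ratio of 11.7. cct2 (gene33781) measured 179, 218 and 248 in control and 201, 295 and 473 in high K+, higher at 13 of 13 time points, with a ratio of 9.14 that became -0.32 with spike-in scaling. cct5 (gene6994), the most abundant subunit, measured 211, 283 and 481 in control and 216, 296 and 475 in high K+. Its ranges coincided and its ratio was -5.50. cct3, with a difference of -0.03 ± 0.32, was the subunit whose mean was lower in high K+. Levels per transcript differed as well: the control mean of cct5 (298) was 10.7 times that of cct7 (27.9), although the assembled ring holds equal numbers of each subunit.

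**Figure D3:**
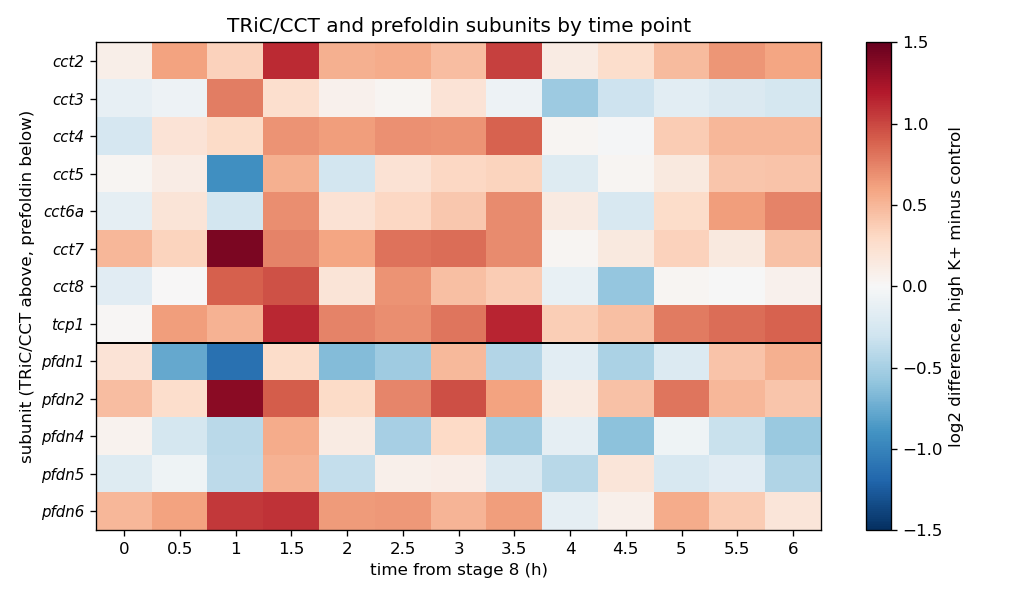
Log2 difference of abundance + 1, high K+ minus control, at each of 13 time points in h for the 8 TRiC subunits (above the line) and the 5 prefoldin subunits among the members (below), red for higher and blue for lower in high K+. tcp1, cct2, cct7 and pfdn2 are red throughout, while at 1 h cct7 (1.41) and cct5 (-0.92) lie at opposite ends of the TRiC subunits.

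Prefoldin was split in the same way. Of the 5 subunits matched by the symbol rule, pfdn2 and pfdn6 were activated and 0 were repressed. That was 40.0% called, beside 38.9% of all genes. These 2 calls were kept under both scalings, but 1 subunit was called repressed under each of them. pfdn2 (gene7167) measured 39.2, 97.4 and 157 in control and 58.4, 162 and 227 in high K+. High K+ exceeded control throughout, by 0.61 ± 0.34, with a ratio of 3.67. pfdn6 measured 95.5, 151 and 292 in control and 146, 224 and 331 in high K+, with a difference of 0.52 ± 0.34. In human cells these proteins also belong to a prefoldin-like complex with URI1 and PDRG1. The remaining members pfdn1, pfdn4 and pfdn5 had differences of -0.19, -0.18 and -0.13. Of the 5, pfdn5 was the most abundant, with 295 to 506 in control and 280 to 587 in high K+. The summed abundance of the 5 exceeded control at 6 of 13 time points. The rule did not match vbp1, a further prefoldin subunit, which averaged 571 in control and 446 in high K+. It was not called, with a ratio of -4.04 and a difference of -0.25, and is not in the sum.

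Of the heat shock factors, hsf1 was activated and hsf3 repressed among 5 genes tested, or 40.0%, beside 38.9% of all genes. hsf1 (gene28481), the main activator of the stress response in vertebrates, ran from 12.3 (median 16.9) to 40.5 in control and from 19.3 (median 25.9) to 58.0 in high K+. The courses overlapped, both falling over time, and the ratio of 1.58 became -3.04 and -5.63 under the 2 scalings. hsf3, known as a heat-responsive factor in birds, measured 4.81, 10.1 and 17.2 in control and 4.26, 5.54 and 11.7 in high K+. It lay below control in 12 of 13 pairs of samples, by -0.56 ± 0.41, with a ratio of 1.13. The call was kept under both scalings but lost without 1 h (-0.53) or without 2 h (-0.39). hsf2 and hsf2.2, a neighbouring pair in the annotation, were not called without scaling. Their differences were -0.22 ± 0.51 and -0.42 ± 0.48, and each was called repressed with a median ratio of 1. hsf2bp was not called (ratio -2.22), and hsf4 and hsf5 stayed too low to test, at no more than 0.574 and 0.132.

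The heat-inducible genes themselves were mostly silent or nearly so. On the list of genes known to rise with heat in vertebrates were 16 rows, of which 9 were tested, 3 were activated (bag3, dnajb1 and hspa1b) and 0 were repressed. That was 33.3% of those tested, beside 38.9% of all genes. Of the 16, 9 never exceeded 2.97 in any of 26 samples, while hspe1, dnaja1, hspd1 and hsph1 are also abundant constitutive genes. hspb1 (HSP27) was listed at 0 in every sample. hsp30c, hsp30d and hsp30e, small heat shock proteins of the frog, were listed at no more than 0.479, 0.673 and 0.342. A value near 0 need not mean absence here, since naca, a subunit of a ribosome-bound complex that all cells use, averaged 0.265 in control and 0.169 in high K+.

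hspa1b (gene1235), an inducible HSP70, was listed at 0.268 to 1.74 in control (median 0.745) and 0.148 to 1.56 in high K+ (median 1.21). The ranges coincided, the difference was 0.07 ± 0.36, and the ratio of 1.94 was -0.13 with a median ratio of 1. hsp70 ran from 0.242 to 2.97 in control and 0.205 to 1.48 in high K+ and was not called. hspa1a and hspa1l were too low to test, at no more than 0.688 and 2.27. Reads of such near-identical copies, of the hsp30 genes, of hsp90aa1.1 and hsp90aa1.2 and of the dnaja4 pair can be divided between them by the quantification, so single rows of these sets are uncertain.

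bag3 (gene32856), the stress-induced BAG protein, fell over the control course. In high K+ it first rose, from 2.90 at 0 h to 5.14 at 1 h, and then fell. It measured 0.055, 0.46 and 3.15 in control and 0.146, 1.08 and 5.14 in high K+. The largest gap was at 1 h, 1.51 in control and 5.14 in high K+, and the ratio was 5.43. dnaja1 exceeded control at 12 of 13 time points, by 0.34 ± 0.31, but its ratio was -0.35. hsp90aa1.1, the inducible HSP90, averaged 9.51 in control and 8.20 in high K+, with a ratio of -3.50.

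**Figure D4:**
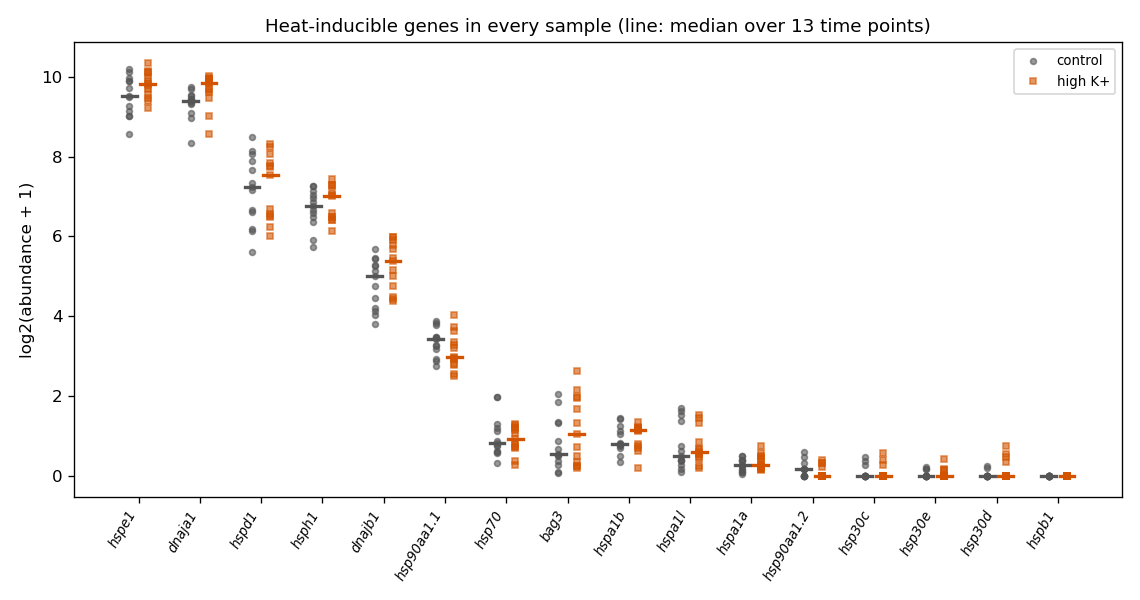
Level of the 16 heat-inducible rows in every sample, as log2(abundance + 1), with 13 control samples (grey circles) and 13 high K+ samples (orange squares) per gene and lines at the medians. The right-hand genes, from hsp70 on, are low in both conditions, and hspb1 is at 0 throughout. Among them bag3 still reached an abundance of 3.15 in control and 5.14 in high K+.

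The small heat shock protein family, which includes hspb1 and the hsp30 genes above, was mostly low: of 10 rows, 2 passed the filter, hspb7 and hspb11. hspb7, known from heart muscle, was listed at 0 to 4.62 in control (median 1.46) and 0.114 to 2.26 in high K+ (median 0.885). Both courses rose, and control ran above high K+ from 4 h onwards, with 4.62 against 1.37 at 4.5 h. It was called repressed with a ratio of 4.06 and a difference of -0.33 ± 0.45. hspb11 averaged 54.0 in control and 44.5 in high K+ and was not called.

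Members were also sorted by site. On the ER list of 9 members, 0 were activated and 0 repressed, beside 38.9% of all genes called. The list leaves out other J proteins placed in the ER, among them dnajb12, dnajb14 and dnajc16. Under all 3 scalings dnajb14 was repressed and dnajc16 activated, while dnajb12 was not called, so these counts rest on the choice of list. The values that follow are for the 9. Their median difference was -0.15, beside 0.08 for all genes, and 7 of 9 were lower in high K+. With a median ratio of 1, 3 of them were called repressed (dnajb9, dnajc3 and dnajc25), and with spike-in scaling 2 (dnajc3 and hsp90b1). hspa5 (BiP), the main ER HSP70, measured 72.8, 114 and 243 in control and 68.1, 102 and 231 in high K+, with a ratio of -7.10. Mitochondrial members numbered 11, of which 2 were activated (dnaja3 and dnajc19) and 0 repressed. That was 18.2% called, beside 38.9% of all genes. With a median ratio of 1, 2 were activated and 1 repressed, and with spike-in scaling 1 was activated and 2 repressed.

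A list of 55 other protein folding genes, which are no members, gave 23 activated and 1 repressed of 53 tested, with a median difference of 0.24. That is 45.3% called, beside 38.9% of all genes. With a median ratio of 1 these became 16 and 7 (43.4%, beside 35.9%), and with spike-in scaling 8 and 5 (24.5%, beside 28.8%). The largest ratios were those of pdia6 (18.2), stub1 (17.6) and pdia3 (15.7). With spike-in scaling pdia6 stayed called (6.19), whereas stub1 (-0.38) and pdia3 (-0.13) did not. The ER disulfide isomerase pdia6 measured 44.7, 62.5 and 166 in control and 75.4, 111 and 323 in high K+. The ranges overlapped, yet high K+ exceeded control each time, by 0.76 ± 0.30. The HSP90 cochaperone sugt1 was the repressed gene, averaging 117 in control and 87.4 in high K+, with a ratio of 6.20. calr, an ER protein named after its values were seen, was activated too (ratio 9.19). ER genes of this list were divided. Besides pdia6 and pdia3, manf, p4hb and serpinh1 (ratio 2.36) were activated, while canx, hyou1, pdia4, sdf2l1, sil1 and creld2 were not called. Of the genes of ER stress signalling on the list, atf6 (4.37), eif2ak3 (2.49), xbp1 (6.12) and atf4 (1.51) were activated. ddit3 was not called (-2.31). With spike-in scaling none of these stress genes was called, nor was serpinh1. With a median ratio of 1, sdf2l1 was called repressed (ratio 0.28). Among the members, hspa5 and hsp90b1 (ratio -2.78) were not called. Whether the lists differ was not tested.

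The change over development was the larger movement. Abundance at 5-6 h was compared with that at 0-1 h (3 samples each) by limma on log2(abundance + 1) with Benjamini-Hochberg adjustment over all genes tested. In control, 10 of 83 members were higher late and 39 lower, beside 19.4% and 55.5% of all genes. In high K+, 13 were higher and 37 lower, beside 20.2% and 53.2%. The median change of members was -0.75 in control and -0.46 in high K+, beside -0.87 and -0.78 for all genes. Direction rested on scaling: with all 26 samples set to a median ratio of 1, 38 members were higher and 17 lower in control, beside 36.6% and 30.9% of all genes. In whole embryos, fewer cells of a type and less RNA per cell cannot be told apart.

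The rising members were few. hspa8 measured 426, 771 and 812 in control at 0, 0.5 and 1 h and 2623, 2064 and 2678 at 5, 5.5 and 6 h. In high K+ it measured 405, 609 and 477 early and 2934, 2547 and 3599 late. The windows were far apart in both, with log2 changes of 1.92 ± 0.27 (SE, adjusted p = 4.33e-05, limma) and 2.61 ± 0.27 (adjusted p = 3.62e-06, limma).

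Other rises in control were those of dnajb13, dnajc18, hspb7 and dnaja4.1. dnajb13, a J protein of sperm tails and cilia in mammals, averaged 5.03 early and 33.5 late, a change of 2.51 ± 0.34 (SE, adjusted p = 2.6e-05, limma). dnajc18 changed by 2.10, hspb7 by 1.89 and dnaja4.1 by 1.26, and all 4 were also called higher late in high K+. pfdn2 and pfdn6 rose in both conditions too, by 1.21 and 1.01 in control.

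The falling members included the largest changes among members. dnajb14 averaged 199 early and 9.34 late in control, a change of -4.18 ± 0.34 (SE, adjusted p = 4.41e-07, limma), and 104 and 8.38 in high K+. bag5, a BAG protein with several BAG domains, averaged 33.1 and 1.14 in control and 23.1 and 1.46 in high K+. The windows did not overlap in either, and the control change was -3.99 ± 0.39 (SE). dnajb5 averaged 699 and 46.8 in control, a change of -3.85, dnajc13, an endosomal J protein, changed by -3.31, and dnajc14 by -2.81. dnajb5 was also called activated in high K+ (ratio 7.69), with 803 as its highest control value and 973 as its highest in high K+, but spike-in scaling took its ratio to -4.51.

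By family, 17 of 25 DNAJC genes, 6 of 10 DNAJB genes and 4 of 6 BAG genes were lower late in control, beside 55.5% of all genes. Of 8 HSP70 genes, 3 were higher and 1 was lower, and these families were not tested against each other. In TRiC, 3 of 8 genes were lower late in control. cct6a averaged 414 early and 68.5 late in control, a change of -2.56 ± 0.26 (SE, adjusted p = 2.71e-06, limma), the largest change of the 3. cct4 changed by -0.78 (adjusted p = 0.00164, limma) and tcp1 by -0.83 (adjusted p = 0.00714, limma). cct3 averaged 140 and 136 and cct8 113 and 155, changes that missed the threshold. In high K+ cct6a was the 1 TRiC gene called lower.

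Both conditions share the time axis but no samples, and no member was called in opposite directions in them. Their contrasts came from the same fit, with a shared estimate of the spread. Of the members higher late, 8 were called in both, which is 80.0% of the control list and 61.5% of the high K+ list. Of those lower late, 35 were called in both, 89.7% of the control list and 94.6% of the high K+ list. The same overlap was not computed over all genes, so these shares stand without a background.

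**Figure D5:**
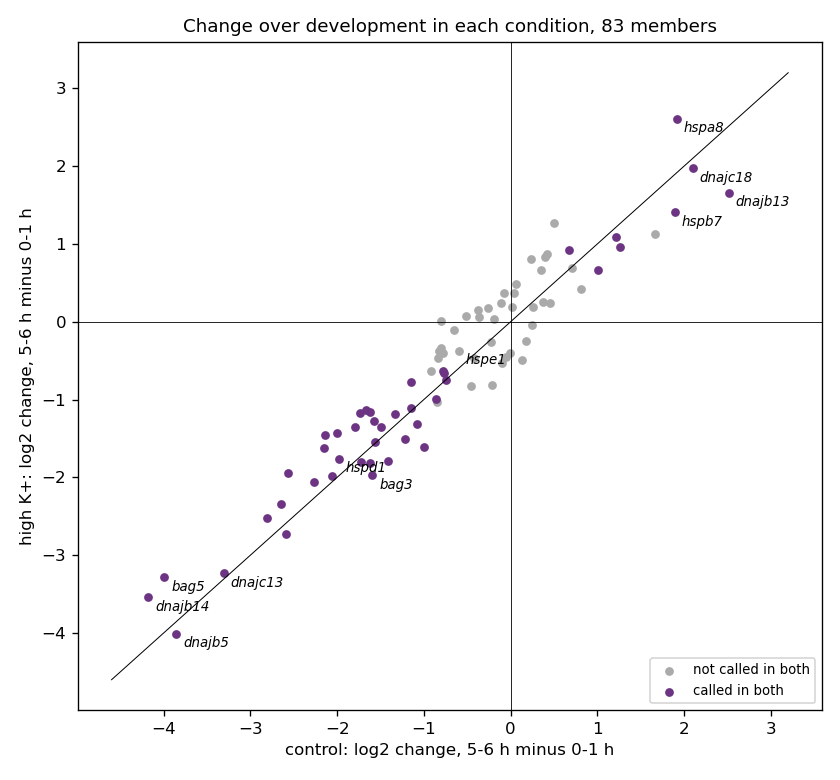
Log2 change from 0-1 h to 5-6 h in control (horizontal) and in high K+ (vertical) for the 83 members tested, as differences of the mean of 3 samples per window; purple points were called in both conditions and the line marks equal change. dnajb14 (-4.18 in control) lies lower left and hspa8 (1.92 in control, 2.61 in high K+) upper right.

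Whether the high K+ difference itself changed with time was tested by limma on the differences at 0-2.5 h (6 time points) against 3-6 h (7 time points). It was called for 0 of 83 members and 0% of all 15019 genes. At an unadjusted p under 0.05 there were 14 members (16.9%) and 1970 genes (13.1%), and the lowest adjusted p of a member was 0.268 (limma). In a fit that did not pair the samples by time point, 0 members were called. An unadjusted p under 0.05 was found for 4 members (4.82%), beside 548 genes (3.65%) (limma). Medians of the members were 0.14 early and 0.09 late.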

How the data were processed

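RNA was sequenced from whole embryos after polyA selection. As deposited, the signal values are abundances that the authors made by aligning reads with STAR, quantifying isoforms with RSEM, correcting them for dinucleotide content (a linear model trained on the ERCC spike-ins, once per condition) and adding up the isoforms of each gene. They are not counts and not rescaled to a common total, so depth is unknown. The table held 34192 genes and 92 spike-in RNAs. All 103 member symbols matched RefSeq names.

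Groups were taken from the sample labels. Members and gene lists were chosen with earlier results of these data known. Each gene was transformed as the square root of 1 + 1000 times its value over its maximum and fitted by Gaussian processes (Matern kernel, time in hours, mean 0) in Python 3.11.15 with numpy 2.4.6 and numba 0.67.0, with the priors of the study. Time unit and mean were assumptions. Windows and early and late parts of the courses were compared by limma 3.58.1 (R 4.3.3) on log2(abundance + 1), adjusted p under 0.05, two-sided, over all 15019 genes tested. Both were run on simulated data with noise drawn independently for each gene and sample. Shifts of whole samples, as seen here, were not simulated, so error rates under them are unknown. Named members were the 8 activated and up to 8 repressed with the largest ratios, the most abundant tested member of each family, all heat shock factors, the heat-inducible list, the 5 largest rises and falls in control, and the 3 leading other folding genes per direction. Further members are named from counts.

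The replicate number is the time point, so it pairs control and high K+ samples by design. Deviations of paired samples correlated at 0.0957 to 0.667. With the time point as replicate block, limma called 25 members higher and 10 lower in high K+, and without it 6 and 0. Alternatives were other scalings, filters, transforms, criteria, pseudocounts and left-out samples.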

Additional observations from a re-analysis of the deposited data

How the results depend on the processing

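Counts of repressed members were the least stable. From 4 they became 15 with each pair of samples at a median ratio of 1, 11 with spike-in scaling, 2 with a log2 transform, 15 with the mean subtracted first, 0 by the Bayesian information criterion and 11 without 1.5, 3 and 4.5 h (chosen after seeing the data). Leaving out 1 time point gave 2 to 8, with 2 without 1 h or without 2 h and 8 without 1.5 h. Activated members numbered 12 with spike-in scaling and 25 to 31 with 1 time point left out. With the time point as replicate block limma gave 25 and 10, and with no replicate block 6 and 0. Repressed genes made up 9.26% of all genes tested without scaling, 17.1% once pairs were scaled and 16.5% after spike-in scaling. The all-gene shares for activated genes under these scalings and for limma are stated above. The remaining counts in this paragraph have no background over all genes. Whether members were less stable than other genes was not tested.

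With all 26 samples at a median ratio of 1, members higher late became 38 (control) and 37 (high K+) and members lower late 17 and 18. Spike-in scaling left 22 lower in high K+. Without the high K+ sample at 6 h 7 were higher there, and leaving out 1 sample gave 7 to 12. With the replicate block 15 were higher and 41 lower late, in a fit that took the change as common to both conditions. Of the counts in this paragraph, those of 38 and 17 in control have a background, 36.6% and 30.9% of all genes. The others stand without one.

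The early against late comparison called 0 members under each alternative run. The ratio of hspa1b was -0.13 with a median ratio of 1, and that of dnajb5 -4.51 with spike-in scaling, each with the direction turned. The causes were not tested. Promoter motifs were not run. Without counts, the depth behind low values such as those of hspa1b or bag3 is unknown.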
